A study of Homo sapiens with 18 samples.

Results

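The comparison described here sets MM1S cells that were pre-treated with ferrostatin-1 (Fer-1) before RSL3 against MM1S cells given RSL3 without Fer-1. Its members were chosen by their labels in the raw count table, and they are 6 of the 18 RNA sequencing libraries of the series, 3 per group, paired by cell passage. MM1S is a human multiple myeloma line that responds to glucocorticoids, and the other 9 libraries in the model beside the 3 untreated MM1S libraries come from MM1R, its glucocorticoid-resistant counterpart. RNA was sequenced to find out which transcripts respond early to ferroptosis induction and which of these responses a ferroptosis inhibitor alters. In the RSL3 group, cells received 5 µM RSL3 for 3 h. In the Fer-1 + RSL3 group, cells received 2 µM Fer-1 for 2 h and then the same RSL3 treatment. Untreated cells received neither compound. All groups were grown in the same serum-supplemented RPMI-1640 medium, no group carries an engineered allele, and each passage (16, 22 and 23, labelled replicates 1, 2 and 3) gave 1 library of each treatment. The labels do not say whether the passages are independent cultures, though the study describes 3 independent biological replicates for each line. The p-values measure the spread between these libraries. No library with Fer-1 alone was analysed here, so an effect of Fer-1 itself and an effect of Fer-1 on the response to RSL3 cannot be told apart.

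RSL3 inhibits GPX4, the selenoenzyme that reduces lipid hydroperoxides in membranes at the cost of glutathione, and without it iron-dependent lipid peroxidation ends in ferroptosis. Fer-1 traps lipid radicals and thereby stops this chain reaction downstream of GPX4. Metallothioneins, the genes on which the comparison turns most, encode small cysteine-rich proteins that bind zinc and copper, and their transcription is driven by the zinc-sensing factor MTF1 through metal response elements close to the start site.

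Total counts of the 6 libraries lay between 17635438 and 18711840. The line was checked by the glucocorticoid receptor gene NR3C1, at 93.1 to 392 CPM (each count relative to the TMM-scaled total of its library) in these 6 libraries and at 13.8 to 22.3 CPM in the MM1R libraries except MM1R Fer-1 + RSL3 replicate 2, which had 50.2 CPM. The 9 plasma cell and myeloma markers (such as SDC1, TNFRSF17 and XBP1) summed to 5701 to 5997 CPM with RSL3 and to 4916 to 5569 CPM with Fer-1 + RSL3, none of them below 1 CPM in any library. Of 4 T or NK cell markers, CD3D and NKG7 were at 0, CD2 was below 1 CPM and CD3E was at 3.26 to 6.99 CPM, and the 4 summed to 4.86 to 7.20 CPM with RSL3 and to 3.42 to 6.66 CPM with Fer-1 + RSL3. All 4 myeloid markers were below 1 CPM. The 5 epithelial or stromal markers summed to 20.8 to 30.9 CPM with RSL3 and to 14.7 to 20.9 CPM with Fer-1 + RSL3, with PECAM1 at 9.78 to 20.2 CPM and COL1A1 at 19.5 CPM in the RSL3 library of passage 16 and at 0.745 to 2.49 CPM in the other 5. The part of these markers in the results was not tested. The RSL3 library of passage 16 stood apart from the other 5. Its TMM factor was 0.864 against 0.990 to 1.04, its NR3C1 level was 392 CPM against 93.1 to 163 CPM, and its difference from the Fer-1 + RSL3 library of the same passage was broader. At passage 16, 776 genes were more than 2-fold lower and 604 more than 2-fold higher with Fer-1, against 240 and 194 at passage 22 and 194 and 175 at passage 23. Each result below is therefore given by passage.

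In the model blocked by passage, 14281 genes were tested with the quasi-likelihood test of edgeR. Called genes had a Benjamini-Hochberg FDR below 0.05 and an absolute log2 fold change above 1, the thresholds of the study's results section. The study itself used the Wald test of DESeq2 and states no block. With Fer-1, 5 genes fell, which is 0.035% of all genes. These were the metallothionein genes MT1E, MT1H, MT1G and MT1F and the chemokine gene CXCL10. None rose (0%). In MM1S, MT1E, MT1H and MT1G had next to no reads outside the RSL3 group. MT1F had few, with 2, 2 and 3 reads in untreated cells and 19, 14 and 8 with Fer-1 + RSL3. The direction of these metallothionein calls was therefore in part set by the choice of genes. Without the fold limit 8 genes passed (0.056%), the other 3 being KLF13 and LOC730101, which fell, and TMEM79, which rose. At an unadjusted p under 0.05, 873 genes were lower (6.11%) and 761 higher (5.33%).

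**Figure D1:**
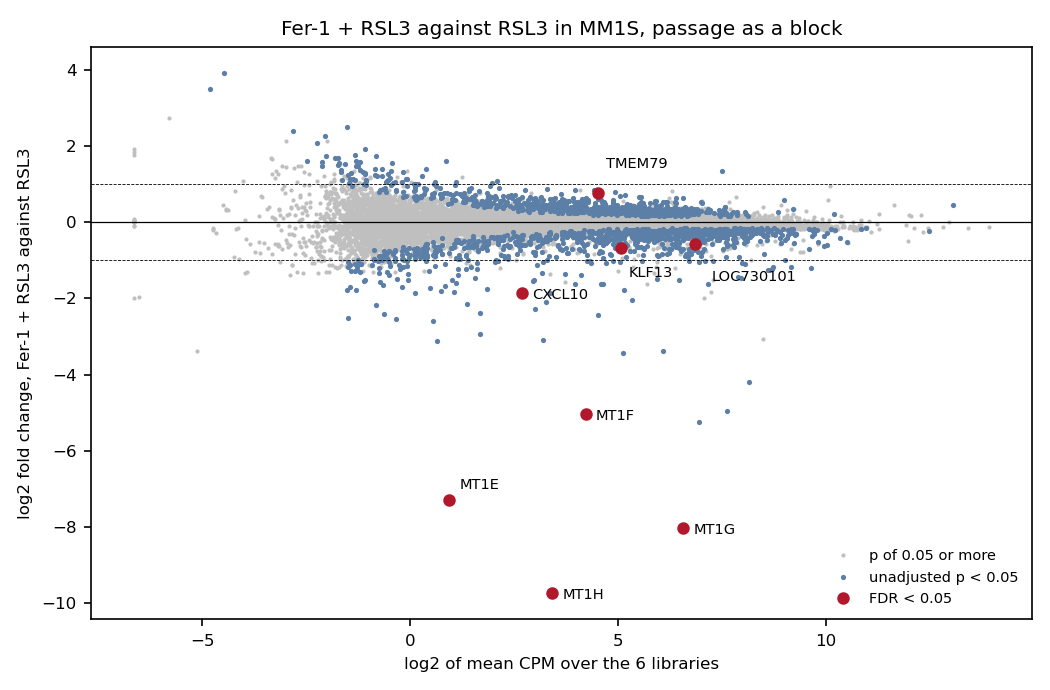
Fer-1 + RSL3 against RSL3 in MM1S for all tested genes, with the log2 mean CPM of the 6 libraries on the x axis and the fitted log2 fold change on the y axis. Large red points are the 8 genes with an FDR below 0.05, small blue points have an unadjusted p under 0.05, grey points do not, and dashed lines mark the fold limit. The 4 labelled metallothionein genes lie below -5 while the 3 genes passing without the fold limit lie within it.

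The fall of the metallothionein genes was seen in every passage in which they could be measured. MT1G (hg19 chromosome 16, 56700642 to 56701977, minus strand) was at 0, 0 and 0.0502 CPM in untreated cells of passages 16, 22 and 23, at 537, 20.6 and 9.55 CPM with RSL3, and at 0.467, 0.929 and 0.105 CPM with Fer-1 + RSL3. The passage 16 library was the highest with RSL3, and the groups did not overlap. Fer-1 changed it by -8.03 on the log2 scale (standard error 1.05, FDR = 0.0159). In raw counts RSL3 gave 8170, 386 and 179 reads and Fer-1 + RSL3 gave 9, 17 and 2 reads, a ratio of 1151 (95% counting interval 606 to 2517) at passage 16, of 22.1 (13.6 to 38.4) at passage 22 and of 91.1 (24.9 to 758) at passage 23. The reads carry no molecular identifiers, so these intervals cover counting error only.

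MT1F (chromosome 16, 56691643 to 56694610, plus strand) was at 97.7, 9.32 and 2.77 CPM with RSL3 and at 0.985, 0.765 and 0.419 CPM with Fer-1 + RSL3, with 0.104 to 0.151 CPM in untreated cells. Each Fer-1 + RSL3 library lay below each RSL3 library. The fitted log2 difference was -5.03 (standard error, SE, 0.73, FDR = 0.0273), and the ratio of RSL3 to Fer-1 + RSL3 was 99.1 at passage 16, 12.2 at passage 22 and 6.62 at passage 23.

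MT1H and MT1E were nearly silent outside the RSL3 group. MT1H (chromosome 16, 56703726 to 56705041, plus strand) had 918, 49 and 23 reads with RSL3 and 0, 1 and 0 reads with Fer-1 + RSL3, and 0 reads in the untreated libraries. Taking 3 reads as the floor of a library, its level was at least 388-fold lower with Fer-1 at passage 16 and at least 7.80-fold lower at passage 23. At passage 22 the 1 read with Fer-1 + RSL3 was at that floor too, so the ratio of 47.8 (95% counting interval 8.18 to 1924) is uncertain. MT1E (chromosome 16, 56659387 to 56661024, plus strand) had 171, 2 and 1 reads with RSL3 and 1, 0 and 0 reads with Fer-1 + RSL3. Only passage 16 carries a measurable difference, a ratio of 217 (38.4 to 8610) to a library that is itself at the floor. MT1H and MT1E both had an FDR of 0.0109, with the direction of the call in part set by the choice of genes.

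MT2A and MT1X, the remaining metallothionein genes tested, were also lower with Fer-1 at each passage but did not pass the adjusted threshold in edgeR. In DESeq2 with the passage block they passed (FDR = 0.0217 and 0.0369), while MT1F (FDR = 0.112) and MT1H (FDR = 0.138) did not. MT1E was given no FDR by DESeq2 and was not called there. Which metallothionein genes were called thus depended on the tool. MT2A was at 1101, 56.2 and 22.2 CPM with RSL3 and at 5.44, 5.90 and 2.73 CPM with Fer-1 + RSL3 (log2 fold change -4.95, standard error 1.22, FDR = 0.316). MT1X was at 1575, 72.6 and 28.4 CPM with RSL3 and at 10.1, 11.6 and 7.65 CPM with Fer-1 + RSL3 (log2 fold change -4.20, standard error 1.18, FDR = 0.352). Neither gene overlapped between the groups, and in the RSL3 group the passage 16 library was far above the others for each. With Fer-1 the levels of both stayed above the untreated libraries, which had 0.993 to 1.66 CPM of MT2A and 1.57 to 2.11 CPM of MT1X, by a log2 fold change of 2.14 (FDR = 0.409) and 2.78 (FDR = 0.205). SLC30A1, the zinc exporter that MTF1 also controls, was at 1310.0, 312 and 254 CPM with RSL3 and at 232, 218 and 215 CPM with Fer-1 + RSL3, with 269.8 to 299.8 CPM in untreated cells (log2 fold change -1.18, standard error 0.42, FDR = 0.395). The mRNA of MTF1 itself was at 36.7 to 39.6 CPM with RSL3 and at 33.2 to 50.2 CPM with Fer-1 + RSL3 (FDR = 0.842), and that of the zinc importer SLC39A10 at 15.4 to 25.0 and 15.7 to 19.3 CPM (FDR = 0.641).

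Of the 19 genes in the metallothionein and zinc list, 9 had enough reads to be tested. MT1E, MT1H and MT1G had next to no reads in MM1S outside the RSL3 group, so a count or a median over the tested genes would point lower by the choice of genes and none is given. Among the 10 genes not tested, MT1B had 27 reads in the RSL3 library of passage 16 and 0 in the other MM1S libraries. Metallothionein genes are close paralogs in 1 cluster and the counting of reads that fit several of them is not given, so the division of reads among them is uncertain. Without the RSL3 library of passage 16 the number of called genes was 0, as it was without the Fer-1 + RSL3 library of that passage. The fitted log2 fold changes without the former were -4.86 for MT1G, -5.93 for MT1H, -3.19 for MT1F, -3.03 for MT1E, -3.15 for MT2A and -2.29 for MT1X. Their FDR was 0.0804, 0.208, 0.133, 0.928, 0.536 and 0.707. Without the passage block 0 genes were called as well and 821 had an unadjusted p under 0.05 (3.46% of all genes lower and 2.29% higher), with a log2 fold change of -8.55 for MT1G. Among the other settings, MT1F lost its call in 13 of 22, MT1G and MT1H in 9 of 22 each and MT1E in 6 of 19.

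**Figure D2:**
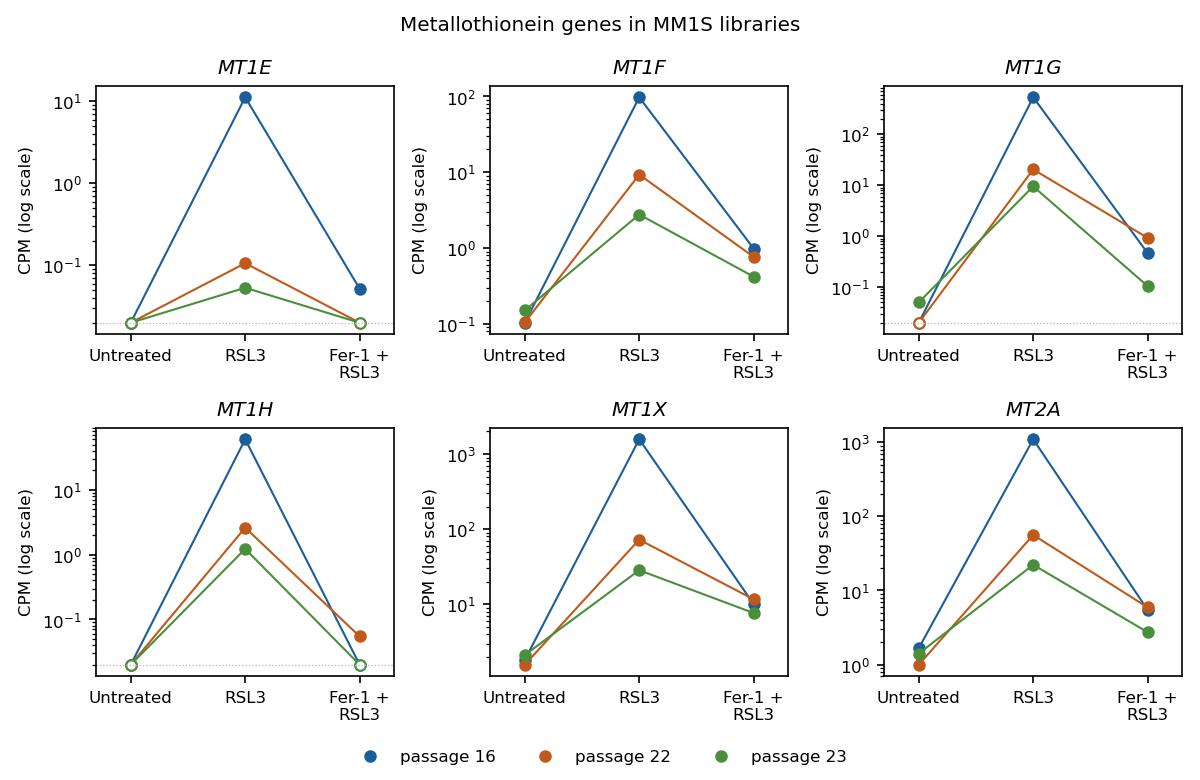
CPM (log scale) of 6 metallothionein genes in the 9 MM1S libraries, by treatment on the x axis, with 1 point per library and lines joining the libraries of a passage. Open points on the dotted line are libraries with 0 reads, and the RSL3 library of passage 16 is the highest of every panel while the Fer-1 + RSL3 libraries lie between the untreated and the RSL3 libraries or at 0.

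The 250 bases upstream of the start of 3 of these genes are shown because they carry the metal response elements through which zinc acts on this family. The sequences are from RefSeq (GRCh38.p14, chromosome 16, plus strand, 5′ to 3′), and MT1E, MT1F and MT1G had no entry in that table. Capitals mark each match to the element core, TGCACNC or TGCGCNC on either strand, and no matches overlap. MT1H lies downstream of chr16:56669564-56669813, MT1X of chr16:56682220-56682469 and MT2A of chr16:56608334-56608583.
MT1H: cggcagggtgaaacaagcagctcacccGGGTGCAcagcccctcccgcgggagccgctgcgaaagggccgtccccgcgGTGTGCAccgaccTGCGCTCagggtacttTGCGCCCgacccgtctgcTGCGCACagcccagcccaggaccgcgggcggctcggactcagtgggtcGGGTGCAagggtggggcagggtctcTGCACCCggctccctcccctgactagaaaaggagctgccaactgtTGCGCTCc
MT1X: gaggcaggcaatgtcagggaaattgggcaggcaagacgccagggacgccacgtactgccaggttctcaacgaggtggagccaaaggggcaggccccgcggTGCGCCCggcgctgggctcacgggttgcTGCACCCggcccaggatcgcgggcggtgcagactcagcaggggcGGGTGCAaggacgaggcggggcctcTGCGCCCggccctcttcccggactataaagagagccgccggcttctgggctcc
MT2A: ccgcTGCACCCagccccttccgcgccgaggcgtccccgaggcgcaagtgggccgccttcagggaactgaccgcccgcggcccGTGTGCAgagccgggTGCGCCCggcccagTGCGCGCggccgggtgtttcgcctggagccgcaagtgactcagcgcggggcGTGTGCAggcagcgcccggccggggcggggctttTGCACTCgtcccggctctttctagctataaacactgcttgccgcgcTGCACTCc
The MT1H window holds 8 matches, that of MT2A 7 and that of MT1X 4. Among 10502 promoters of tested genes, 33.0% of windows of the same length held at least 1 match and 0.476% held 4 or more. The SLC30A1 window held 1 match, that of KLF13 held 3, and those of CXCL10 and TMEM79 held 0. A match is a description of the letters and not a measured binding site.

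CXCL10, a chemokine gene induced by interferon and NF-kappa-B (chromosome 4, 76942271 to 76944650), was at 24.3, 2.77 and 4.32 CPM with RSL3 and at 4.20, 1.42 and 1.52 CPM with Fer-1 + RSL3. Its level was lower with Fer-1 in each passage, although the groups overlapped because the passages differ. The fitted log2 difference was -1.85 (SE 0.29, FDR = 0.0364). CXCL10 lost its call in 16 of 22 other settings, with FDR values up to 1, one of them being without MM1R Fer-1 + RSL3 replicate 2 (FDR = 0.0648). In untreated cells it was at 13.3, 2.98 and 4.92 CPM, so that the Fer-1 + RSL3 libraries lay below the untreated library of each passage (log2 fold change against untreated cells -1.54, FDR = 0.00415). By the same criteria 0.847% of all genes were lower and 1.83% higher with Fer-1 + RSL3 than in untreated cells.

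KLF13, a Krüppel-like transcription factor gene (chromosome 15, 31619038 to 31727868), was lower with Fer-1 at each passage. It was at 71.0, 68.4 and 68.3 CPM in untreated cells, at 38.6, 41.5 and 43.2 CPM with RSL3 and at 22.4, 25.5 and 29.6 CPM with Fer-1 + RSL3. The 3 groups did not overlap, and the level with Fer-1 was farther from untreated cells than the level with RSL3 alone. The fitted log2 difference was -0.67 (SE 0.09, FDR = 0.0165), and -0.68 without the RSL3 library of passage 16 (FDR = 0.080).

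TMEM79, which encodes a transmembrane protein (chromosome 1, 156252726 to 156262976), moved the other way. Untreated cells had 14.0, 11.9 and 10.2 CPM, RSL3-treated cells 16.8, 16.7 and 17.3 CPM, and cells given Fer-1 + RSL3 35.8, 26.1 and 25.1 CPM. The groups did not overlap and the difference again led away from untreated cells (log2 fold change 0.75, standard error 0.12, FDR = 0.0364). LOC730101 was at 155, 129.7 and 129.5 CPM with RSL3, at 103, 81.3 and 94.5 CPM with Fer-1 + RSL3 and at 184 to 238 CPM in untreated cells (log2 fold change -0.57, standard error 0.09, FDR = 0.0364). Over all genes, 4.17% had every Fer-1 + RSL3 library below every RSL3 library and 4.62% had every one above.

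The other genes that were named for the smallest p and the same direction in all 3 passages (16.6% of all genes were lower and 16.3% higher in all 3) did not pass the adjusted threshold. Lower with Fer-1 were CAV2, a caveolin gene (54.8 to 62.3 CPM with RSL3, 41.1 to 47.8 CPM with Fer-1 + RSL3, FDR = 0.121), TLNRD1 (97.5 to 108 and 46.8 to 80.4 CPM, FDR = 0.187) and C11orf96 (40.1, 6.66 and 4.0 CPM against 5.44, 3.99 and 1.42 CPM, FDR = 0.192). Higher with Fer-1 were the adaptor gene SH2B3 (29.6 to 32.1 CPM with RSL3, 37.6 to 48.7 CPM with Fer-1 + RSL3, FDR = 0.0924), the sestrin gene SESN3 (119, 48.3 and 49.1 CPM against 215, 63.4 and 74.9 CPM, FDR = 0.267), the guanylate-binding protein gene GBP3 (42.6 to 60.1 and 57.8 to 89.9 CPM, FDR = 0.267), ZNF589 (6.05 to 6.72 and 8.70 to 10.7 CPM, FDR = 0.277), the fucosyltransferase gene FUT10 (6.97 to 12.3 and 13.02 to 17.2 CPM, FDR = 0.316) and DNAJC24 (10.98 to 14.7 and 16.8 to 18.9 CPM, FDR = 0.316). Also among them was the ribosomal RNA entry RNR2, at 10895, 6252 and 5009 CPM with RSL3 and 12485, 9469.6 and 7211 CPM with Fer-1 + RSL3 (FDR = 0.316). The share of counts on RNR1 and RNR2 was 0.536 to 1.02% with RSL3 and 0.776 to 1.39% with Fer-1 + RSL3, and its part in these differences was not tested.

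Of 13 genes of glutathione and cystine supply, 2 were higher and 0 lower at an unadjusted p under 0.05, against 5.33% and 6.11% of all genes, and the median log2 fold change was 0.08. In all 3 passages 4 of them were higher and 0 lower, against 16.3% and 16.6% of all genes. CHAC1, a glutathione-degrading enzyme induced by ATF4, was at 4.66, 58.7 and 16.01 CPM in untreated cells, at 76.7, 97.3 and 132 CPM with RSL3 and at 215, 308 and 253 CPM with Fer-1 + RSL3. Every Fer-1 + RSL3 library lay above every RSL3 library (fitted log2 difference 1.33, SE 0.44, FDR = 0.393). SLC7A11, the cystine transporter, was at 82.0, 71.0 and 64.9 CPM with RSL3 and at 92.9, 73.2 and 90.0 CPM with Fer-1 + RSL3, against 7.36 to 30.4 CPM in untreated cells (log2 fold change between the treated groups 0.24, 95% interval -0.48 to 0.97, FDR = 0.791). GPX4, the target of RSL3, was at 230.1, 221 and 229.9 CPM with RSL3 and at 171, 245 and 216 CPM with Fer-1 + RSL3 (log2 fold change -0.12, 95% interval -0.36 to 0.12, FDR = 0.664). In the list of lipid peroxidation and GPX4-independent defence, 1 of 17 genes was lower and 1 higher at this level, near the 6.11% and 5.33% of all genes. ACSL4, which loads membranes with polyunsaturated fatty acids, was at 54.2 to 60.7 and 46.9 to 59.3 CPM (log2 fold change -0.17, 95% interval -0.36 to 0.02, FDR = 0.467).

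Of 27 NRF2 targets tested, 1 was lower and 0 higher at an unadjusted p under 0.05, with a median log2 fold change of -0.05. The share that was lower is near the 6.11% of all genes, and 5.33% of all genes were higher. HMOX1, heme oxygenase 1 (chromosome 22, 35776354 to 35790207), was at 10.6, 9.09 and 13.2 CPM in untreated cells, at 2298, 310.2 and 434 CPM with RSL3 and at 1220.3, 1142 and 975 CPM with Fer-1 + RSL3. With Fer-1 its level was lower at passage 16 and higher at passages 22 and 23, and the groups overlapped (log2 fold change 0.59, 95% interval -0.50 to 1.68, FDR = 0.646). Against untreated cells its fitted log2 fold change was 6.09 with RSL3 (FDR = 0.000247) and 6.68 with Fer-1 + RSL3 (FDR = 4.68e-05), comparisons that share the untreated libraries with each other and 1 treated group each with the main one. GCLM, a subunit of the enzyme of glutathione synthesis, was at 57.9 to 67.7 and 57.0 to 61.5 CPM, and SRXN1, sulfiredoxin, at 261 to 319 and 244 to 353 CPM, against 22.3 to 26.7 and 82.5 to 101 CPM in untreated cells. The intervals of their log2 differences between the treated groups were -0.31 to 0.12 for GCLM and -0.20 to 0.28 for SRXN1.

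In the iron and heme list, 2 of 18 genes were lower and 1 higher at an unadjusted p under 0.05, against 6.11% and 5.33% of all genes. TFRC, the transferrin receptor through which cells take up iron, was at 405, 388 and 446 CPM in untreated cells, at 361, 141 and 155 CPM with RSL3 and at 39.98, 72.5 and 92.4 CPM with Fer-1 + RSL3. The lowest of the 9 libraries was the Fer-1 + RSL3 library of passage 16, and the treated groups did not overlap (log2 fold change -1.63, standard error 0.43, FDR = 0.316). Without the RSL3 library of passage 16 the log2 fold change was -1.01 (FDR = 0.707). Against untreated cells the log2 fold change of TFRC was -0.95 with RSL3 (FDR = 0.134) and -2.58 with Fer-1 + RSL3 (FDR = 0.00199). SLC40A1, the iron exporter, was at 1.76 to 2.43 CPM with RSL3 and at 2.41 to 5.70 CPM with Fer-1 + RSL3 (FDR = 0.383). The ferritin chains FTH1 (149, 77.2 and 62.3 CPM against 75.3, 92.3 and 63.4 CPM) and FTL (7095, 3589.5 and 3333 CPM against 2194, 4444 and 3568 CPM) were lower with Fer-1 at passage 16 only.

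**Figure D3:**
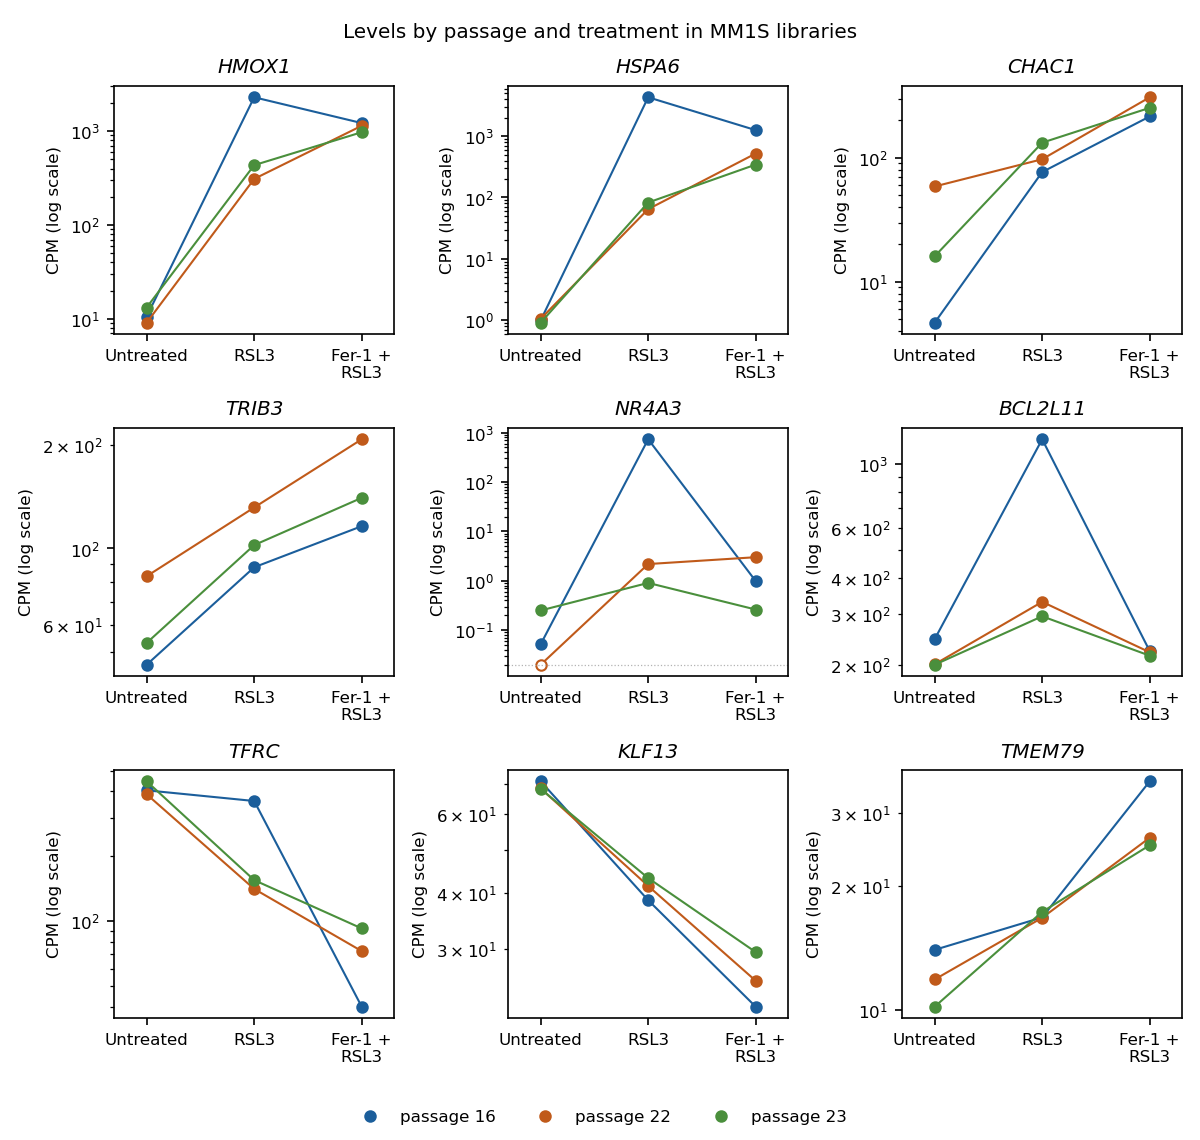
CPM (log scale) of 9 genes in the 9 MM1S libraries, by treatment on the x axis, with 1 point per library and lines joining the libraries of a passage. NR4A3 and BCL2L11 peak in the RSL3 library of passage 16, HMOX1 and HSPA6 stay far above untreated cells in both treated groups, and KLF13, TFRC and TMEM79 move farther from untreated cells when Fer-1 is added.

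Of 21 targets of ATF4 and the integrated stress response tested, 2 were higher and 0 lower at an unadjusted p under 0.05 (5.33% and 6.11% of all genes), and 16 had a positive fitted log2 fold change (median 0.15). The median difference was 0.0012 at passage 16, 0.17 at passage 22 and 0.31 at passage 23, and 19 of the 21 were higher with Fer-1 at each of the last 2 passages. Of all 14265 tested genes with reads, 7150 were lower at passage 22 and 7645 at passage 23. A negative fitted log2 fold change was found for 7287 of them (51.1%). TRIB3, a pseudokinase gene induced by ATF4 (chromosome 20, 343479 to 378203), was at 46.0, 83.1 and 53.2 CPM in untreated cells, at 88.2, 131 and 102 CPM with RSL3 and at 116, 207 and 140.2 CPM with Fer-1 + RSL3. It was higher with Fer-1 in each passage (log2 fold change 0.50, standard error 0.11, FDR = 0.267). The stress transcription factor gene ATF3 was at 1858, 255 and 240.1 CPM with RSL3 and at 309.5, 471 and 448 CPM with Fer-1 + RSL3, lower at passage 16 and higher at the other passages (FDR = 0.801). In the list of the endoplasmic reticulum unfolded protein response, 3 of 17 genes were lower and 0 higher (6.11% and 5.33% of all genes). DNAJB9, a chaperone gene of that response, was at 464, 184 and 168 CPM with RSL3 and at 168, 161 and 162 CPM with Fer-1 + RSL3 (log2 fold change -0.61, standard error 0.24, FDR = 0.402).

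Heat shock genes changed sign between the passages. Of the 20 tested genes with reads, 19 were lower with Fer-1 at passage 16 and all 20 were higher at passages 22 and 23, with median log2 differences of -1.07, 0.53 and 0.33, against 0.02, -0.00076 and -0.02 over all tested genes. The fitted median was 0.0048 and no gene of the list had an unadjusted p under 0.05. HSPA6, a strictly inducible HSP70 gene (chromosome 1, 161494330 to 161496684), was at 0.984, 1.04 and 0.903 CPM in untreated cells, at 4321, 64.5 and 82.8 CPM with RSL3 and at 1256, 522 and 345 CPM with Fer-1 + RSL3. DNAJB1, an HSP40 co-chaperone, was at 7939, 928 and 1068 CPM with RSL3 and at 3547, 3130.1 and 2546 CPM with Fer-1 + RSL3. BAG3, a co-chaperone of HSP70, was at 1801, 283 and 255 CPM and at 857, 714 and 538 CPM. In each of these genes the RSL3 libraries spread widely and the Fer-1 + RSL3 libraries lay within their range. Against untreated cells of the same passage, the median of the list was 2.21, 0.89 and 0.76 with RSL3 and 1.34, 1.29 and 1.11 with Fer-1 + RSL3. The small heat shock gene HSPB1 followed the same course, at 529.6, 49.9 and 38.6 CPM with RSL3 and 73.8, 98.0 and 50.5 CPM with Fer-1 + RSL3 (FDR = 0.681).

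Immediate early genes were lower with Fer-1 mainly at passage 16. Of 24 tested, 10 were lower and 0 higher at an unadjusted p under 0.05 (6.11% and 5.33% of all genes), and the median log2 difference was -2.13 at passage 16, 0.14 at passage 22 and -0.15 at passage 23. EGR2, EGR3, FOSL1 and NR4A3 had 116, 25, 20 and 11155 reads in the RSL3 library of passage 16. In untreated MM1S libraries they had at most 11, 1, 9 and 5. The direction of such genes, and so the count of lower genes, may in part be set by the choice of genes. The orphan nuclear receptor gene NR4A3 (chromosome 9, 102584137 to 102629173) was at 733, 2.18 and 0.907 CPM with RSL3 and at 0.985, 3.01 and 0.262 CPM with Fer-1 + RSL3, with at most 0.251 CPM in untreated cells. NR4A1 was at 2073, 15.7 and 11.4 CPM with RSL3 and at 24.2, 24.6 and 4.82 CPM with Fer-1 + RSL3, and NR4A2 at 391, 2.34 and 1.92 CPM and at 5.13, 3.01 and 1.52 CPM. In all 3 genes the passage 16 RSL3 library lay far above the other 5 libraries, and the remaining libraries of the groups overlapped. Their fitted log2 fold changes were -5.25 (FDR = 0.402), -3.07 (FDR = 0.495) and -3.37 (FDR = 0.426). Without the passage 16 RSL3 library the median of the list was 0.06, and 3 of its genes were lower at an unadjusted p under 0.05. In that setting 779 of 14604 tested genes were at that level in either direction.

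BTG2, an antiproliferative gene, and EGR2, a zinc finger transcription factor gene, were lower with Fer-1 at each passage. BTG2 was at 575 to 656 CPM in untreated cells, at 614, 522 and 488 CPM with RSL3 and at 411, 413 and 398 CPM with Fer-1 + RSL3, without overlap (log2 fold change -0.41, standard error 0.09, FDR = 0.267). EGR2 had 116, 13 and 5 reads with RSL3 and 7, 6 and 1 reads with Fer-1 + RSL3, so that most of its difference rests on passage 16 (FDR = 0.356). Among the dual specificity phosphatases and kinase feedback genes, 2 of 17 were lower and 1 higher at an unadjusted p under 0.05, against 6.11% and 5.33% of all genes. DUSP4, which inactivates MAP kinases in the nucleus, was at 886, 151 and 142 CPM with RSL3 and at 122, 107 and 86.6 CPM with Fer-1 + RSL3, and DUSP5 at 1821, 402 and 324 CPM and at 305, 328 and 250.2 CPM. Both were lower with Fer-1 at each passage, and DUSP4 did not overlap between the groups (FDR = 0.356 for DUSP4 and 0.395 for DUSP5). Much of the difference lay at passage 16, and without its RSL3 library the log2 fold changes were -0.61 for DUSP4 and -0.34 for DUSP5. DUSP6, which acts on ERK, was at 22.4, 46.6 and 35.4 CPM with RSL3 and at 70.3, 52.3 and 44.2 CPM with Fer-1 + RSL3 (FDR = 0.426).

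In the apoptosis and p53 list, 7 of 26 genes were lower and 0 higher at an unadjusted p under 0.05 (6.11% and 5.33% of all genes), with a median log2 fold change of -0.20. BCL2L11, which encodes the pro-apoptotic protein BIM (chromosome 2, 111876955 to 111926021), was at 246, 201 and 201 CPM in untreated cells, at 1216, 332 and 295 CPM with RSL3 and at 224, 222 and 216 CPM with Fer-1 + RSL3. The RSL3 libraries were above all 6 others, and the Fer-1 + RSL3 libraries lay within the range of untreated cells (log2 fold change -1.22, standard error 0.38, FDR = 0.393). BAK1, a pore-forming member of the same family, was at 237, 103 and 98.3 CPM with RSL3 and at 87.8, 97.1 and 78.4 CPM with Fer-1 + RSL3 (FDR = 0.393), and CASP8, the initiator caspase of death receptors, at 214, 169.7 and 171 CPM and at 168, 139 and 148 CPM (FDR = 0.394). Without the RSL3 library of passage 16, 0 genes of this list were lower at that level, against 779 of 14604 tested genes in either direction. The log2 fold change of BCL2L11 was then -0.56.

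Of 14 tested genes of NF-kappa-B feedback, cytokines and chemokines, 3 were lower and 0 higher at an unadjusted p under 0.05, CXCL10 among them, against 6.11% and 5.33% of all genes. Of 21 interferon-stimulated genes, a list that also holds CXCL10, 3 were lower and 1 higher, the latter near the 5.33% of all genes. The interferon regulatory factor gene IRF1 was at 109, 113 and 99.1 CPM with RSL3 and at 85.1, 89.0 and 85.7 CPM with Fer-1 + RSL3, against 103 to 105 CPM in untreated cells. Its treated groups did not overlap (log2 fold change -0.30, standard error 0.08, FDR = 0.316). PTGS2, a prostaglandin synthase gene often used as a ferroptosis marker, was at 50.1, 1.39 and 0.640 CPM with RSL3 and at 0.830, 1.15 and 0.681 CPM with Fer-1 + RSL3, so that only the passage 16 RSL3 library stood out (FDR = 0.412).

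Genes of cholesterol and fatty acid synthesis were lower with Fer-1 in 6 of 22 cases at an unadjusted p under 0.05 (6.11% of all genes), with 0 higher (5.33%) and a median log2 fold change of -0.15. INSIG1, the sterol-responsive brake on this pathway, was at 2329.7, 558 and 605 CPM with RSL3 and at 354, 528 and 448 CPM with Fer-1 + RSL3, and HMGCS1, which makes the precursor of mevalonate, at 128, 97.9 and 104 CPM and at 74.1, 84.5 and 81.2 CPM. Neither gene overlapped between the treated groups, and their FDR was 0.402 and 0.387. IDI1, an isomerase of the pathway, was at 155, 103 and 122 CPM and at 87.5, 93.6 and 108 CPM (FDR = 0.394). Without the RSL3 library of passage 16, 0 of the 22 genes were lower at that level, against 779 of 14604 tested genes in either direction.

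In the cell cycle and replication list, 2 of 28 genes were lower and 2 higher at an unadjusted p under 0.05, near the 6.11% and 5.33% of all genes. The mitotic genes CDC20 and AURKA were low in the RSL3 library of passage 16. CDC20, an activator of the anaphase-promoting complex, was at 35.4, 129.8 and 170.4 CPM with RSL3 and at 109, 153 and 182 CPM with Fer-1 + RSL3, and the mitotic kinase gene AURKA at 22.5, 82.7 and 97.7 CPM and at 73.4, 89.8 and 101 CPM (FDR = 0.448 and 0.455). Of the chromatin regulators named with ferroptosis, 1 of 19 was lower and 2 higher (6.11% and 5.33% of all genes). The histone demethylase gene KDM4A was at 43.8, 69.0 and 63.1 CPM with RSL3 and at 87.3, 80.0 and 84.1 CPM with Fer-1 + RSL3, without overlap (log2 fold change 0.54, standard error 0.13, FDR = 0.316). The pioneer factor gene FOXA1 was at 60.5, 23.3 and 17.1 CPM with RSL3 and at 12.9, 21.4 and 14.5 CPM with Fer-1 + RSL3 (FDR = 0.418). KDM6B, a demethylase of histone H3, was at 63.4, 17.0 and 8.59 CPM with RSL3 and at 14.4, 16.5 and 9.75 CPM with Fer-1 + RSL3 (FDR = 0.458), so that for both genes the passage 16 RSL3 library was the highest and the other libraries overlapped.

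**Figure D4:**
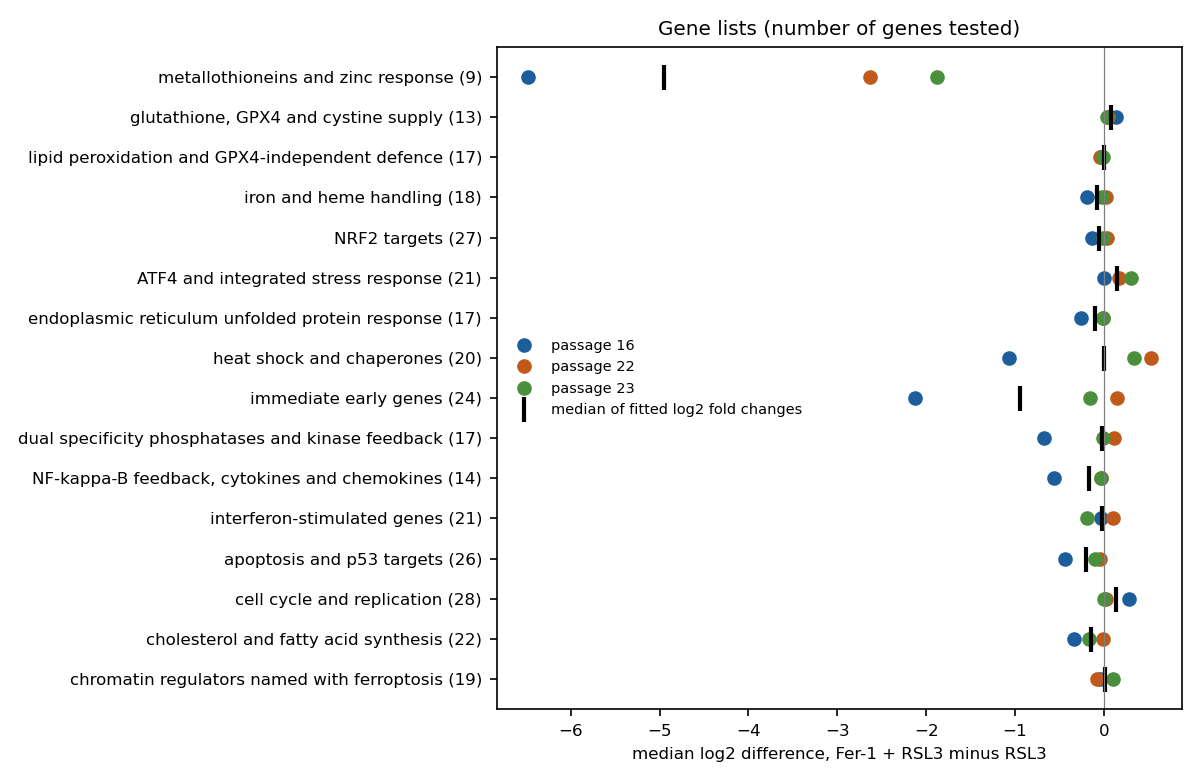
Median log2 difference between Fer-1 + RSL3 and RSL3 for 16 gene lists, with 1 point per passage and a bar for the median of the fitted log2 fold changes. Numbers in brackets are genes tested, and the heat shock and immediate early lists lie below 0 at passage 16 and close to or above 0 at passage 22. The metallothionein and zinc list includes genes with next to no reads in MM1S outside the RSL3 group, so its points lie low in part by the choice of genes.

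The response to RSL3 as a whole was followed in MM1S with genes chosen in MM1R cells, whose libraries are not among the 6 compared but share the estimate of the spread. RSL3 raised 337 genes in MM1R (2.36% of all genes, same criteria, against 0.511% lowered), a list added after the data had been seen. In MM1S, their median log2 difference between Fer-1 + RSL3 and RSL3 was -0.68 at passage 16, 0.08 at passage 22 and 0.06 at passage 23. Of the 337 genes, 60 (17.8%) were lower and 19 (5.64%) higher at an unadjusted p under 0.05, against 6.11% and 5.33% of all genes. Their median above untreated cells of the same passage was 2.03, 0.86 and 0.80 with RSL3 and 1.27, 0.85 and 0.83 with Fer-1 + RSL3. These medians share the untreated libraries. Of the 337, 128 were more than 2-fold lower with Fer-1 at passage 16, 7 at passage 22 and 14 at passage 23, against 776, 240 and 194 of the 14265 tested genes with reads in these libraries. In all 3 passages 74 were lower and 46 higher, against 16.6% and 16.3% of all genes. With only the 9 MM1S libraries in the model 30 of 307 (9.77%) were lower at an unadjusted p under 0.05, against 4.45% of all genes, and with only the 6 libraries compared 30 of 305 (9.84%), against 2.71%. On the authors' normalized values limma gave 39 (11.6%), against 5.48%. Without the RSL3 library of passage 16, 11 of them (3.26%) were lower, against 2.74% of all genes, and without the Fer-1 + RSL3 library of that passage 12 (3.56%), against 2.03%.

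**Figure D5:**
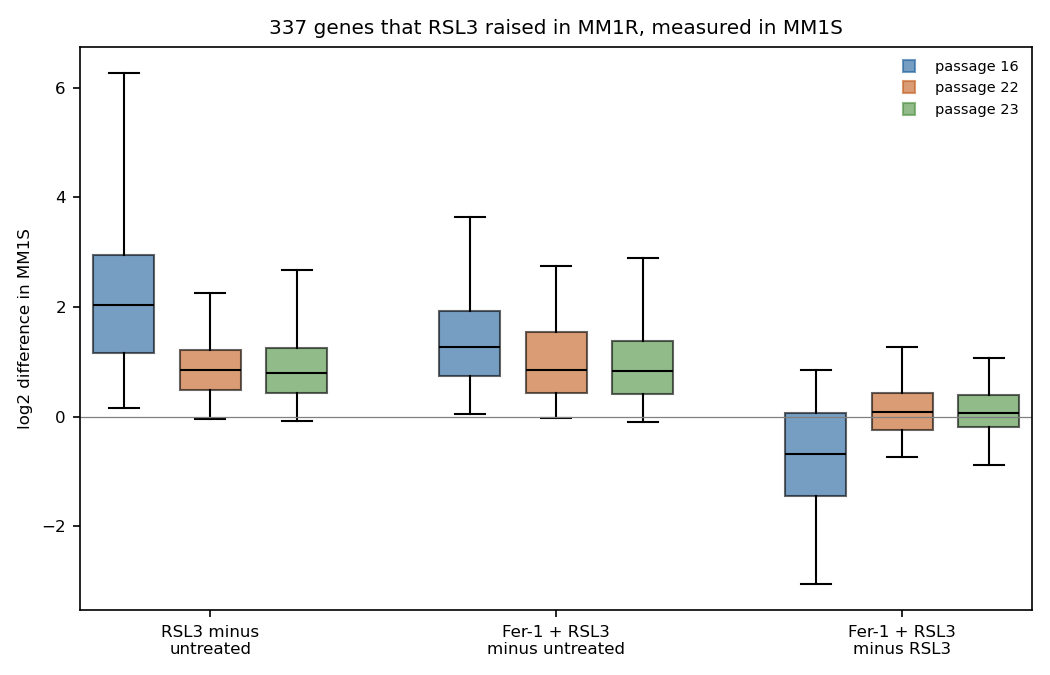
Log2 differences in MM1S for the 337 genes that RSL3 raised in MM1R, by contrast on the x axis and coloured by passage. Boxes span the quartiles with the median as a line and whiskers reach the 5th and 95th percentiles of the genes, and the Fer-1 + RSL3 minus RSL3 median is -0.68 at passage 16 and near 0 at the other passages.

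In MM1R cells the same treatment contrast, in libraries of its own, called 12 genes, 9 lower (0.063%) and 3 higher (0.021%), and 6.38% of all genes were lower and 7.18% higher at an unadjusted p under 0.05. The 5 genes that fell in MM1S also fell in MM1R, with log2 fold changes of -7.18 for MT1E, -7.88 for MT1H, -6.81 for MT1G, -6.97 for MT1F and -1.66 for CXCL10 (FDR = 0.00833, 0.00887, 0.0102, 0.0181 and 0.0175). With the fold limit lifted, 25 genes passed in MM1R (0.175%), and 7 of the 8 genes of MM1S were among them, all in the same direction, including KLF13 (log2 fold change -0.51, FDR = 0.0442) and TMEM79 (0.68, FDR = 0.0442). LOC730101 did not pass in MM1R (-0.21, FDR = 0.332). The lines share no library, though they share the estimate of the spread. MT1E, MT1H and MT1G had next to no reads in MM1S outside the RSL3 group, and MT1F had few. The direction of these metallothionein genes, and with it their agreement between the lines, was in part set by the choice of genes. Without MM1R Fer-1 + RSL3 replicate 2, the library with raised NR3C1, the calls in MM1R and in MM1S were MT1E, MT1F, MT1G and MT1H, and the FDR in MM1S was 0.075 for TMEM79 and 0.077 for LOC730101.

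The test of the difference between the lines in the effect of Fer-1 called 0 genes in edgeR's quasi-likelihood test, with 355 at an unadjusted p under 0.05 (2.49% of all genes, 1.53% lower and 0.959% higher in MM1S than in MM1R), and DESeq2 called 1 (SPIN3). Without the RSL3 library of MM1S passage 16 edgeR called 2 (MGST1 and SPIN3), and without a filter on low counts 5. The interval of the log2 difference between the lines was -4.45 to 2.02 for MT1G, -0.44 to 0.11 for KLF13, -0.28 to 0.43 for TMEM79 and -1.21 to 1.43 for CHAC1. The smallest FDR, 0.128, belonged to SPIN3 and to the glutathione transferase gene MGST1, which in MM1S were at 6.44 to 8.58 and 20.4 to 23.2 CPM with RSL3 and at 7.54 to 8.07 and 12.96 to 19.5 CPM with Fer-1 + RSL3. In MM1R their largest log2 differences, 5.12 and 6.63, lay at passage 6, which holds MM1R Fer-1 + RSL3 replicate 2.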

How the data were processed

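RNA of 18 MM1R and MM1S libraries was sequenced by the authors (BGISEQ-500, paired 50 bp reads), checked with FastQC 0.11.5 and aligned to hg19 with STAR 2.7.3a. The authors deposited raw counts for 43735 genes, and a second table of normalized signal for 29553 genes, equal to the count over a library-specific size factor (0.834 to 1.08). The counting tool, annotation and use of strand are not given in the sources used here, so overlapping genes and paralogs are uncertain.

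The raw counts were tested with edgeR 4.0.16 in R 4.3.3 (filterByExpr with a minimum count of 10, TMM, glmQLFit, glmQLFTest, Benjamini-Hochberg), with 6 groups, passage as a block and 8 residual degrees of freedom. All 18 libraries shared the estimate of the spread. CPM are TMM-adjusted, passage differences are log2 CPM with a prior count of 2, and a library with 3 counts or fewer is at the floor. Count ratios are scaled by library size, with exact 95% intervals. Passages pair the libraries, since each holds every treatment and the deviations of RSL3 and Fer-1 + RSL3 libraries of a passage from their group means correlated at 0.216 to 0.512 (3 pairs). Replicate libraries differed beyond sampling noise (chi-square per degree of freedom 7.66 to 159).

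The members, lists, tests and the block were chosen with earlier results of these data known, among them that the block gave more calls. Genes named are those called, the 10 of smallest p in each direction that moved alike in 3 passages with a mean of at least 1 CPM, those that the study's RNA results name, 3 of smallest p in each of 16 lists, the extremes of the difference between the lines, and list members given for their values. Positions are from GENCODE 44 lifted to hg19, joined by symbol, and promoters from RefSeq. On simulated counts with the real library sizes, 199 of 200 genes changed 4-fold were recovered, with 7 false calls among 14175 genes. The changed genes had a mean above 1 CPM in MM1S and the same change in every passage. The real differences varied by passage, so this share does not give the recovery in the real data. Alternatives were no block, DESeq2 1.42.0, RLE and upper-quartile scaling, other filters and thresholds, fewer libraries, limma 3.58.1 on log2 of the signal values plus 1, and leaving out libraries. The lists of genes raised by RSL3 in MM1R and of ZNF genes, and the alternatives run on lists, were added after seeing the data. A few genes that the lists or the naming rule would include are not reported here.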

Additional observations from a re-analysis of the deposited data

Results flagged for a closer look

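Among the named genes, 2 moved one way in every MM1S passage and the other way in every MM1R passage. Over all genes, 16.6% were lower and 16.3% higher with Fer-1 in all 3 MM1S passages, shares that do not cover MM1R. The naming rules pick genes that moved alike in MM1S or differed most between the lines. The count of 2 was therefore in part set by these rules. GREB1, an oestrogen-responsive gene, had 37, 3 and 6 reads with RSL3 and 103, 8 and 9 reads with Fer-1 + RSL3 in MM1S, and its effect of Fer-1 on the log2 scale was 1.32 higher in MM1S than in MM1R (FDR of the difference = 1), where the difference at passage 7 was -0.0010. LOC101928369 had 11, 4 and 4 reads with RSL3 and 26, 11 and 12 reads with Fer-1 + RSL3 in MM1S, and its effect was 2.20 higher than in MM1R (FDR of the difference = 0.651). Neither difference passed edgeR's quasi-likelihood test after adjustment.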

How the results depend on the processing

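With the passage as a block 5 genes fell. Without the replicate block that pairs the passages the number was 0, and it was 0 with only the 9 MM1S libraries, with only the 6 libraries compared, and with limma on the authors' values. The number called in either direction was 3 with a minimum count of 50 and 8 without a fold limit (all but TMEM79 lower). It was 76 without a filter on low counts (71 lower) and 243 at the FDR threshold of 0.5 that the methods print (149 lower). It was 7 with DESeq2 (2 shared with the 5, CXCL10 and MT1G) and 5 with RLE or upper-quartile scaling. Leaving out a library, or a passage, gave 0 to 6 genes lower. It was 0 without the RSL3 or the Fer-1 + RSL3 library of passage 16 or without that passage. In MM1R, the 12 calls became 0 without the block, 33 with DESeq2, 115 without a filter, 25 without a fold limit, 308 at an FDR of 0.5, and 2 to 91 when a library or passage was left out (91 without the RSL3 library of MM1S passage 16, 81 without that passage, 4 without MM1R Fer-1 + RSL3 replicate 2). The 0 calls for the difference between the lines became 1 with DESeq2, 5 without a filter, 3 at an FDR of 0.5 and 0 to 2 when a library was left out.

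Signs of named genes changed in 40 of 1487 cases, none with an FDR below 0.05. Without the block, log2 fold changes were -0.15 for BAG3, -0.11 for DNAJB1 and -1.07 for HSPA6. When single MM1S libraries were left out, they ranged from -1.38 to 1.00 for ATF3, -0.21 to 1.29 for BAG3, -0.17 to 1.53 for DNAJB1, -0.46 to 0.11 for FTH1, -0.85 to 0.21 for FTL, -0.24 to 2.60 for HSPA6 and -1.54 to 0.73 for HSPB1. The others that turned ranged from -1.27 to 0.075 for KDM6B, -0.065 to 0.17 for MTF1, -4.82 to 0.053 for NR4A1, -4.91 to 0.28 for NR4A2, -4.36 to 0.12 for PTGS2, -0.011 to 0.54 for SLC7A11, -0.094 to 0.12 for SPIN3 and -0.052 to 0.10 for SRXN1. Without passage 16 they were 0.90 for ATF3, 0.15 for FTH1, 0.21 for FTL, 0.032 for GPX4, 0.71 for HSPB1, 0.058 for KDM6B, 0.067 for NR4A2 and -0.11 for SPIN3. Without passage 22 they were -0.20 for BAG3, -0.15 for DNAJB1, -0.056 for HMOX1, -0.16 for HSPA6 and -0.019 for SRXN1. Without passage 23 they were -0.10 for BAG3, -0.0073 for DNAJB1 and -0.083 for MTF1. The cause was not tested.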

Other observations

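Genes whose symbol starts with ZNF, most of which encode zinc finger proteins, were looked at after their values had been seen, so no test is given for them. Of 415 such genes tested, 84 (20.2%) were higher and 8 lower with Fer-1 at an unadjusted p under 0.05 in MM1S, against 5.33% and 6.11% of all genes. Their median log2 difference was 0.40 at passage 16, 0.08 at passage 22 and 0.10 at passage 23, and 149 were higher and 18 lower in all 3 passages, against 16.3% and 16.6% of all genes. ZNF227 was at 19.5, 26.6 and 30.5 CPM with RSL3 and at 45.5, 36.2 and 39.4 CPM with Fer-1 + RSL3, without overlap, and at 19.7 to 25.1 CPM in untreated cells. ZNF473 was at 26.0, 19.6 and 22.6 CPM with RSL3 and at 35.3, 29.1 and 26.0 CPM with Fer-1 + RSL3, higher in each passage. In the MM1R libraries 121 of the 415 genes (29.2%) were higher and 5 lower at an unadjusted p under 0.05, against 7.18% and 6.38% of all genes, with a median of 0.16, 0.18 and 0.30 at passages 4, 6 and 7.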
